A study of Mus musculus with 6 samples.

Results

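The genes described here are 43 very long mouse genes, listed by name because each stretches over an unusually large part of its chromosome. A probe set that carries the symbol of the gene alone was found for 41 of them, out of 19550 genes measured. Magi2 and Immp2l had no such probe set and have no values here, although their promoters and neighbouring genes are counted further on. Where a gene had several probe sets, the one with the highest mean over all arrays stood for it. The members were chosen by the knockout-minus-wild-type values of these same arrays, because long genes were higher in the knockouts than in wild type. The differences between knockouts and wild type are therefore given for the members as a description, without p-values. Where members called in those comparisons are counted, the share of all tested genes stands beside the count and nothing is read from it.

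Liver RNA of male C57BL/6NCrSlc mice was hybridised to 6 arrays, 2 in each of 3 groups. AA-deficient SMP30/GNL knockouts ate a diet (CL-2) deficient in ascorbic acid (AA, vitamin C). AA-supplemented SMP30/GNL knockouts ate that diet too and drank water with AA, kept stable with EDTA. Wild-type mice carried the intact gene, were fed without vitamin C and drank water without it. SMP30, also called regucalcin or gluconolactonase (GNL), is encoded by Rgn and catalyses a step that mice need to make AA. The sources used here give neither age nor the number of animals behind an array, nor which part of Rgn is deleted or in which cells. P-values hence measure only the spread between these arrays, which may be technical.

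Rgn stood at 0.229 and 0.297 in AA-deficient knockout livers, 0.339 and 0.141 in AA-supplemented knockout livers, and 2.07 and 1.996 in wild type, in deposited log units. The 10 hepatocyte markers averaged 2.09 to 2.11 in AA-deficient knockout livers, 2.06 to 2.19 in AA-supplemented knockout livers and 2.02 to 2.07 in wild type, and all 10 were tested. Of these markers 9 were higher in AA-deficient and 10 in AA-supplemented knockout livers than in wild type, with medians of 0.040 and 0.065, and 0 passed in limma. Their part in the differences of the members was not tested. Values ran from -0.575 to 2.51 and are read as log10, so that a difference of 0.30 is close to a doubling. The log base is not stated, and the folds hold for base 10 alone. The array medians lay between 0.350 and 0.392. No detection call was available, so a low value could not be told from background. Genes with a mean over all arrays of 0.185 or more (the 25th percentile) were tested, 14662 in all.

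Most of the length of such genes is intron. RNA polymerase needs a long time to cross them, and their introns are removed while transcription goes on. Many members are best known from neurons, where they encode proteins of synapses and axons, and others form the common fragile sites described in human cells. Hepatocytes use only some of them, among them transcription factors and metabolic enzymes. In bulk tissue a gene can differ because cells of a type are more or fewer or because each cell holds more or less of its RNA, and these cannot be told apart here.

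The members with a probe set spanned from 278 kb (Ext1) to 2.39 Mb (Dmd) in the RefSeq table of GRCm38.p6, with a median of 1.14 Mb. The tested genes as a whole had a median span of 20.1 kb. Next above Ext1 came Tcf4 with 345 kb, and 28 members reached 1 Mb. Of all 30 tested genes of 1 Mb or more, 17 were members. The filter on low values was passed by 30 members and failed by 11. Those below it were the adhesion and receptor genes Nrxn3, Lsamp, Tenm2 and Il1rapl1, the neuregulin Nrg3 and the potassium channel partner Dpp10. The synaptic scaffold Dlg2, the catenins Ctnna2 and Ctnna3, the splicing regulator Rbfox1 and the neurodevelopmental gene Auts2 were also below it. On each array the 11 genes read between -0.195 and 0.259, a range in which no order is read. On the median they deviated from their own means by 0.0225 and -0.0674 in AA-deficient knockout livers, -0.0425 and 0.0385 in AA-supplemented knockout livers, and 0.0455 and -0.0110 in wild type. The 2 arrays of a group fell on opposite sides in each of the 3 groups.

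A small set of members made up the largest differences. Tenm3 encodes teneurin 3, a transmembrane protein that guides neuronal wiring, and spans 1.30 Mb. It read 0.708 and 0.722 in AA-deficient knockout livers, 0.475 and 0.422 in AA-supplemented knockout livers, and 0.0288 and 0.179 in wild type. The 3 groups did not overlap, with the AA-deficient knockout livers on top and wild type lowest. The difference from wild type was 0.61 (SE 0.056) in AA-deficient knockout livers and 0.34 (SE 0.056) in AA-supplemented knockout livers. Both wild-type arrays read below the filter value, where a level could not be told from background, so no fold is given.

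Zbtb20 encodes a zinc finger repressor that in mouse liver silences alpha-fetoprotein after birth. It read 1.54 and 1.53 in AA-deficient knockout livers, 1.52 and 1.597 in AA-supplemented knockout livers, and 1.09 and 1.32 in wild type. All 4 knockout arrays lay above both wild-type arrays, and the knockout groups overlapped. Wild-type array 1 was the lowest of the 6. The difference of the AA-deficient knockout livers from wild type was 0.33 (SE 0.072, 2.12-fold), and 0.21 without wild-type array 1.

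Lpp, a LIM protein of the zyxin family found at focal adhesions, read 1.42 and 1.39 in AA-deficient knockout livers, 1.27 and 1.29 in AA-supplemented knockout livers, and 0.962 and 1.08 in wild type. Ptprd, a receptor tyrosine phosphatase that acts as a synaptic organiser in neurons, read 1.53 and 1.51 in AA-deficient knockout livers, 1.41 and 1.43 in AA-supplemented knockout livers, and 1.16 and 1.20 in wild type. Both genes followed the order of Tenm3, with 3 groups apart. Against wild type Lpp differed by 0.38 (SE 0.049) in AA-deficient knockout livers and 0.26 (SE 0.049) in AA-supplemented knockout livers. The differences of Ptprd were 0.34 (SE 0.041) and 0.24 (SE 0.041) in the same order.

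**Figure D1:**
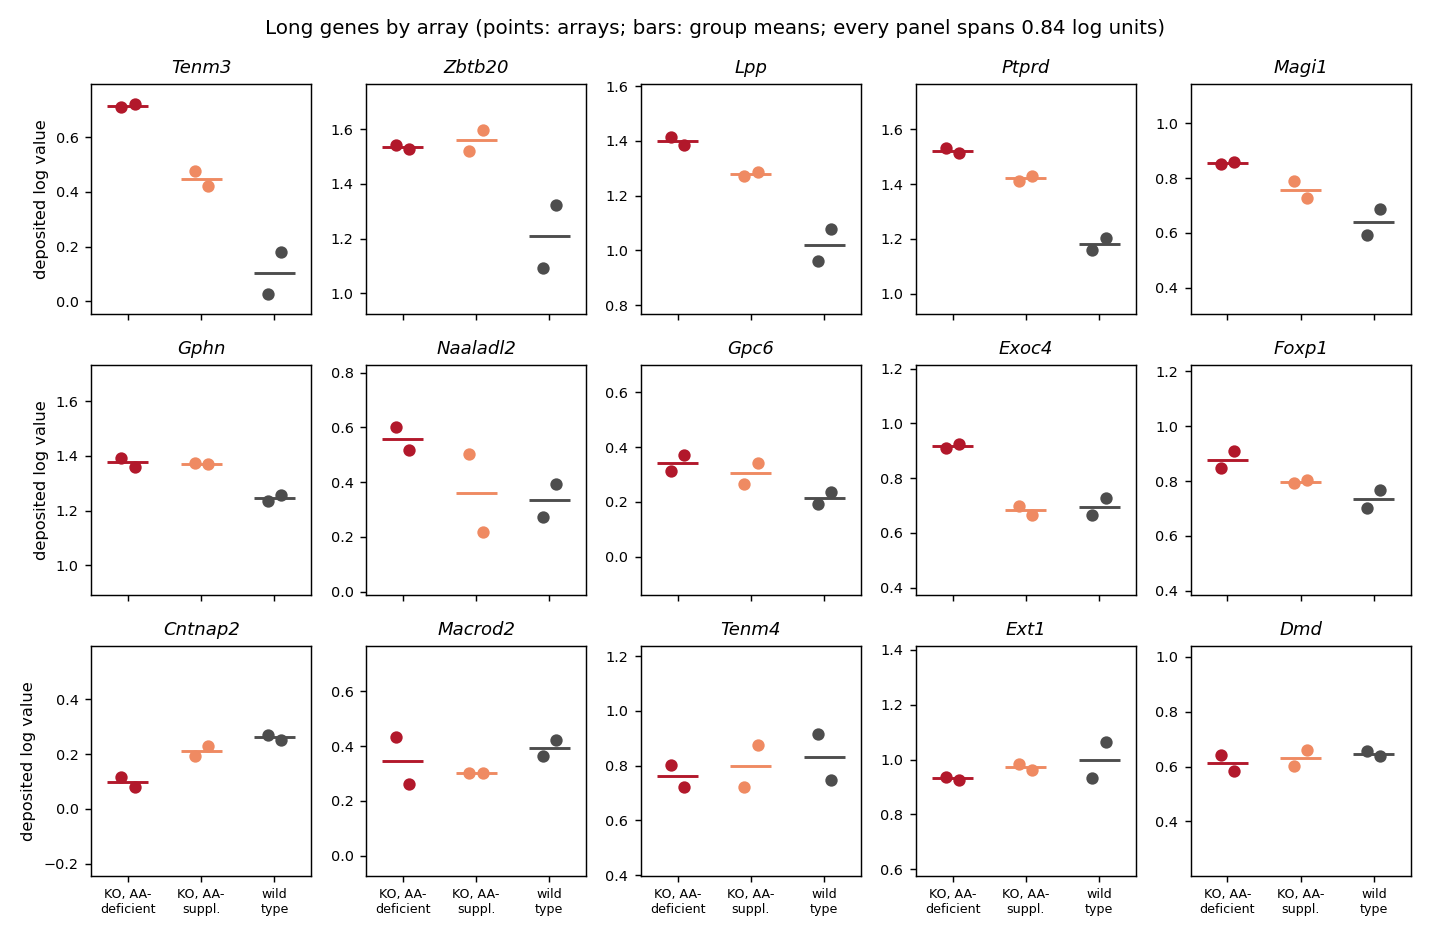
Deposited log values of 15 members on each array (points), with group means (bars) and the same height of scale in every panel; knockouts stand left of wild type. Tenm3, Lpp and Ptprd step down over the 3 groups, Zbtb20 and Gphn separate both knockout groups from wild type, Exoc4 is highest in the AA-deficient arrays, and Cntnap2 lies close to the filter value.

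The promoters of 3 of the genes with the largest differences and of Cntnap2, the member with the lowest, are printed as examples. Most values of Cntnap2 lie in the range of the members below the filter, so the sign of its difference is not read. Each runs from 250 bases before to 50 bases after a start, 5′ to 3′ on the strand of the gene. The start is the most upstream of those held for the gene in the set of RefSeq promoter windows (GRCm38.p6). It was not matched to the ends of the span, so it may lie inside the gene. They are Tenm3 at chr8:48674641-48674940 (minus strand), Zbtb20 at chr16:43247034-43247333 (plus), Lpp at chr16:24393100-24393399 (plus) and Cntnap2 at chr6:45059811-45060110 (plus). Capitals mark CG dinucleotides, whose density sets apart CpG island promoters from others.
Tenm3: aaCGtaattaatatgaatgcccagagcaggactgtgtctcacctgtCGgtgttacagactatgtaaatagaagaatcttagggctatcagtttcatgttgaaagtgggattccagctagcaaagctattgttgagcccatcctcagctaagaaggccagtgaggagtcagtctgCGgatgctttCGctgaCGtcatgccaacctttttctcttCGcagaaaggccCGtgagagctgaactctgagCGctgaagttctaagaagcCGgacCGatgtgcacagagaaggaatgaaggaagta
Zbtb20: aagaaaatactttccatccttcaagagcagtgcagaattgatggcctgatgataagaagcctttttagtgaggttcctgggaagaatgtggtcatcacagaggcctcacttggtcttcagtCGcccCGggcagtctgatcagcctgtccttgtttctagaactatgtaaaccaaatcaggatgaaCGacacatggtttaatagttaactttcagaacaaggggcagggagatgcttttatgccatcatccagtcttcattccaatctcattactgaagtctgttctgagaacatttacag
Lpp: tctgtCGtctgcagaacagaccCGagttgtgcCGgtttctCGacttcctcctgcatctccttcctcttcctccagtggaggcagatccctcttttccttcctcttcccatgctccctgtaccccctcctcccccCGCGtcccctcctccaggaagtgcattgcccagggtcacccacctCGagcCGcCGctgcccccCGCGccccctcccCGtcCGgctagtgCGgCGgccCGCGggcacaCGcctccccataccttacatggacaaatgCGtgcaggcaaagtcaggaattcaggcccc
Cntnap2: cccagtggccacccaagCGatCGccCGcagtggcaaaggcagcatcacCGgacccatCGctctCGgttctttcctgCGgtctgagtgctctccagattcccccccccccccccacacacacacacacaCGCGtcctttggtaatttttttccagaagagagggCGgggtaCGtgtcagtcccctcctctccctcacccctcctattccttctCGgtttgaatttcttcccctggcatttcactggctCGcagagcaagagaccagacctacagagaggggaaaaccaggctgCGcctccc
The Tenm3 window held 10 CG dinucleotides, that of Zbtb20 3, that of Lpp 19 and that of Cntnap2 14. Over the 33 members found in that set of windows the median was 12 (range 2 to 42), against 7 over all 27025 promoters. The GC box GGGCGG was searched on both strands, and 14 of the 33 members (42.4%) held it, against 35.9% of all promoters. A TATAAA box on either strand was present in 3 members (9.09%), against 14.2% of all promoters. These letters describe the window alone. Ptprd, among others, had no entry.

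Over the 30 tested members 24 were higher in AA-deficient knockout livers than in wild type, as were 48.5% of all tested genes, with a median difference of 0.088 (1.22-fold), while the median over all tested genes was -0.0034. In limma 6 members passed at an adjusted p under 0.05, all higher, where 4.63% of all tested genes passed and 3.08% were higher, and 12 had an unadjusted p under 0.05, where 20.4% of all did. They were Tenm3, Ptprd, Lpp, Zbtb20, Magi1 and Exoc4. The rule used this contrast, so nothing is read from that count. The count was 0 without wild-type array 1 and 0 without wild-type array 2, and in each of these fits 1 gene, Rgn, passed. It was 3 without either of the AA-deficient arrays. In 18 members both AA-deficient arrays lay above both wild-type arrays, which held for 27.6% of all tested genes. Cntnap2 alone among the tested members had both below, against 26.9% of all tested genes. Either way apart were 54.5% of all tested genes.

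In AA-supplemented knockout livers 21 of the 30 were higher than in wild type, against 49.1% of all tested genes, with a median of 0.035 (1.08-fold) against -0.0017 over all tested genes. In limma 0 members passed and 6 had an unadjusted p under 0.05 (10.6% of all tested genes did), while 0.00682% of all tested genes passed, a single gene. With moderation that follows the mean level (the trend option of eBayes) 4 members passed, where 94 of all 14662 tested genes did. With the trend and robust options 3 members passed, where 116 of all tested genes did. The rule used this contrast as well, so nothing is read from these counts. Both AA-supplemented arrays lay above wild type in 13 members, against 19.8% of all tested genes, and below it in 3, against 18.8% (38.6% of all tested genes either way). This comparison shares its wild-type arrays with the one before, so the 2 sets of differences are not independent.

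**Figure D2:**
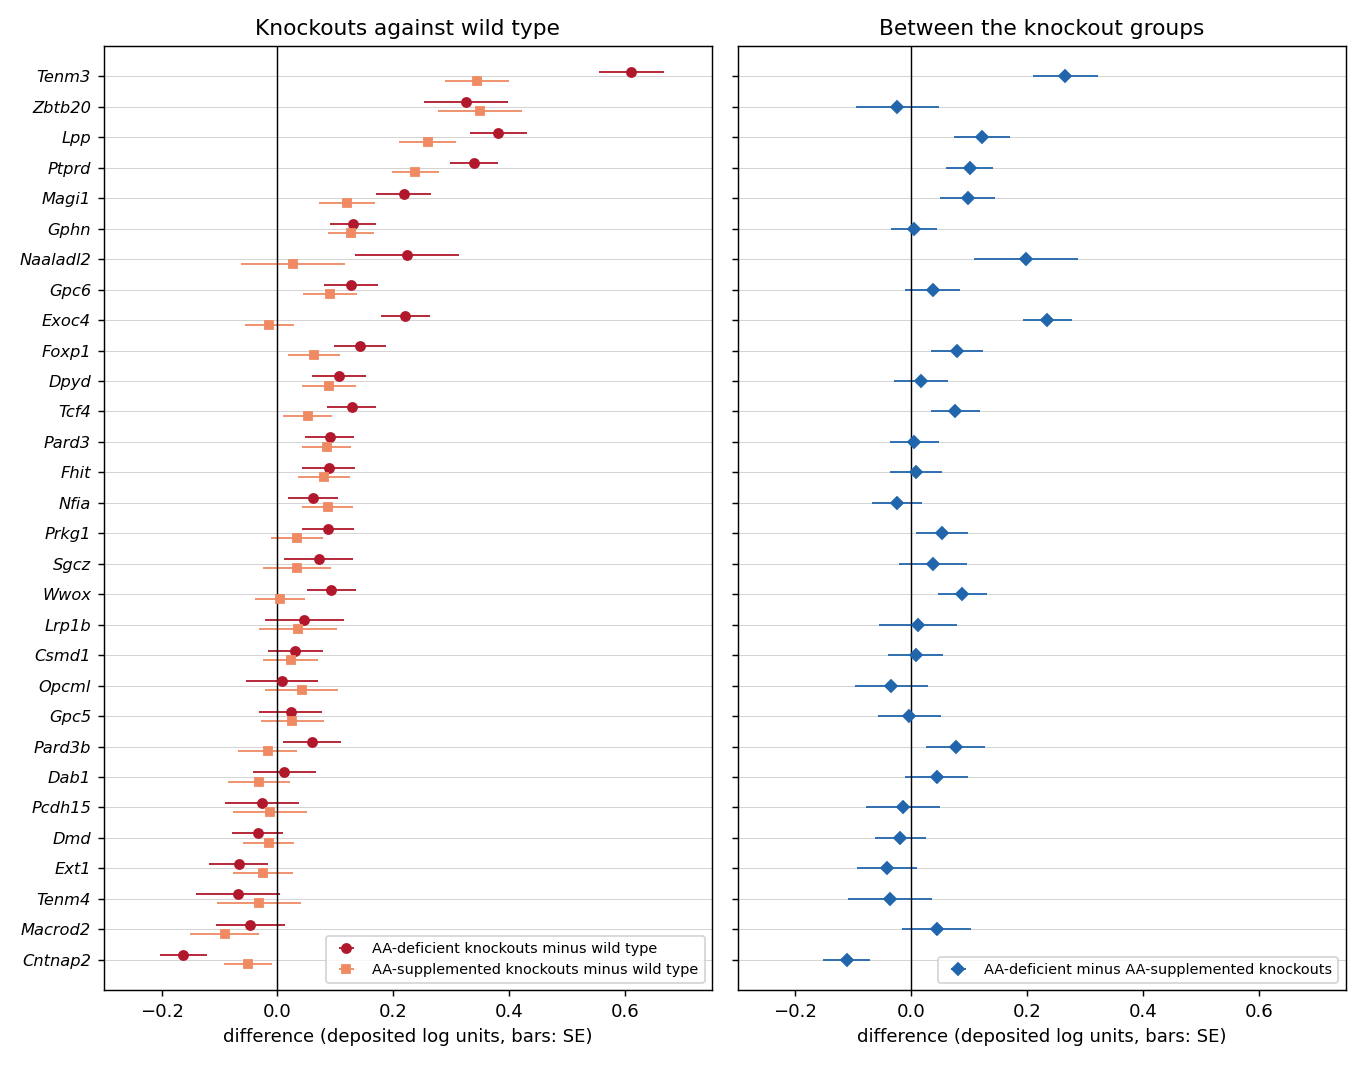
Differences of the 30 tested members in deposited log units with their SE, sorted by the mean of both differences from wild type; circles are AA-deficient and squares AA-supplemented knockout livers minus wild type (left), diamonds AA-deficient minus AA-supplemented knockout livers (right). The top is taken by Tenm3, Zbtb20, Lpp and Ptprd, most others lie near 0 with a tail to the right, and Cntnap2 stands at the bottom.

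The comparison between the knockout groups holds the genotype and varies the supply of AA and of the EDTA in the water. It was not named by the rule, although it uses the same knockout arrays. Of the 30 tested members 0 passed in limma and 5 had an unadjusted p under 0.05, while 0.205% of all tested genes passed (0.0409% were higher, 0.164% lower) and 9.92% reached an unadjusted p under 0.05. The median difference was 0.027, against 0.000031 over all tested genes, and 21 were higher in the AA-deficient knockout livers. Without AA-deficient array 1 the median was -0.00055 and without AA-deficient array 2 it was 0.051. Both AA-deficient arrays lay above both AA-supplemented arrays in 10 members, where 19.8% of all tested genes did so, and below in 2, where 17.5% did, or 37.3% either way.

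The smallest adjusted p belonged to Exoc4, which encodes a subunit of the exocyst, the complex that tethers secretory vesicles to the plasma membrane. It read 0.910 and 0.923 in AA-deficient knockout livers, 0.697 and 0.667 in AA-supplemented knockout livers, and 0.665 and 0.727 in wild type. The AA-deficient arrays stood apart from the other 4, which overlapped. Between the knockout groups it differed by 0.23 (SE 0.042, 1.72-fold, adjusted p = 0.105 in limma), and passed with the trend option (adjusted p = 0.0273). The other subunits of the exocyst, Exoc1, Exoc2, Exoc3, Exoc5, Exoc6, Exoc7 and Exoc8, are shorter genes. Their differences between the knockout groups ran from -0.052 (Exoc5) to 0.097 (Exoc1), and from -0.043 (Exoc5) to 0.025 (Exoc8) between AA-deficient knockout livers and wild type.

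Tenm3 had the largest difference between the knockout groups, 0.27 (SE 0.056, 1.85-fold, adjusted p = 0.144 in limma). The third largest was that of Naaladl2, a gene of the glutamate carboxypeptidase family, at 0.20 (SE 0.090, adjusted p = 0.537). Naaladl2 read 0.600 and 0.516 in AA-deficient knockout livers, 0.504 and 0.217 in AA-supplemented knockout livers, and 0.274 and 0.394 in wild type. The AA-supplemented arrays lay far apart, and the difference between the knockout groups was 0.34 without the first AA-supplemented array and 0.054 when the second was left out. Its other 3 probe sets showed the same split of the AA-supplemented arrays. On the most extreme, 10497501, the values were 0.577 and 0.596 in AA-deficient knockout livers, 0.364 and 0.00584 in AA-supplemented knockout livers, and -0.00972 and 0.0645 in wild type. The second AA-supplemented value and both wild-type values there are below the filter value, where a level could not be told from background.

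By role, the adhesion proteins and receptors best known from neurons had the widest spread. Of the 7 tested, 4 were higher in AA-deficient knockout livers than in wild type and the median was 0.0078. Beside Tenm3 and Ptprd at the top of that group stood Cntnap2 at its foot, which encodes the axonal protein Caspr2 that clusters potassium channels. Cntnap2 read 0.117 and 0.0811 in AA-deficient knockout livers, 0.192 and 0.229 in AA-supplemented knockout livers, and 0.271 and 0.252 in wild type. Most of these values lie in the range of the members below the filter, so no order of the groups is read from them. Its differences were -0.16 (SE 0.041) in AA-deficient and -0.051 (SE 0.041) in AA-supplemented knockout livers against wild type. Between the knockout groups its difference was -0.11 (SE 0.041, adjusted p = 0.408 in limma). Tenm4, a paralog of Tenm3, read 0.804 and 0.721 in AA-deficient knockout livers, 0.721 and 0.876 in AA-supplemented knockout livers, and 0.915 and 0.747 in wild type. Its groups overlapped, and so did those of Opcml, Csmd1 and the deafness-linked cadherin gene Pcdh15 between AA-deficient knockout livers and wild type. The endocytic receptor gene Lrp1b differed by 0.047 (SE 0.068) in that comparison.

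All 6 tested scaffold, polarity and trafficking genes were higher in AA-deficient knockout livers than in wild type, with a median of 0.11, and 3 of 6 were higher in AA-supplemented knockout livers. Magi1, a scaffold at tight junctions, read 0.853 and 0.859 in AA-deficient knockout livers, 0.788 and 0.729 in AA-supplemented knockout livers, and 0.591 and 0.686 in wild type, with no overlap among the 3 groups. Gephyrin, Gphn, anchors inhibitory receptors at synapses and, in liver as elsewhere, completes the molybdenum cofactor. It read 1.39 and 1.36 in AA-deficient knockout livers, 1.37 and 1.37 in AA-supplemented knockout livers, and 1.23 and 1.26 in wild type. The knockout groups were level and both lay above wild type, by 0.13 (SE 0.040) in each. The polarity gene Pard3 lay apart from wild type in both knockout groups, by 0.090 (SE 0.042) in AA-deficient and 0.085 (SE 0.042) in AA-supplemented knockout livers. Pard3b differed by 0.060 (SE 0.051) and the reelin adaptor Dab1 by 0.012 (SE 0.054) in AA-deficient knockout livers against wild type. On a further probe set of Pard3b the difference was 0.22 there, with both wild-type arrays below the filter value.

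The 4 tested transcription regulators were all higher than in wild type in both knockout groups, with medians of 0.14 in AA-deficient and 0.075 in AA-supplemented knockout livers. In each of the 4, both arrays of either knockout group lay above both wild-type arrays, where 27.6% of all tested genes did so for the AA-deficient and 19.8% for the AA-supplemented group. All 4 stood above the 75th percentile of mean value. Of the 52 other genes of 300 kb or more in that class, 37 and 26 lay above wild type in the same order. The rule used these comparisons, so nothing is read from the counts. Foxp1, a forkhead repressor, read 0.847 and 0.908 in AA-deficient knockout livers, 0.793 and 0.802 in AA-supplemented knockout livers, and 0.702 and 0.768 in wild type. Tcf4, an E-protein that binds E-box sequences, differed from wild type by 0.13 (SE 0.042) in AA-deficient and 0.053 (SE 0.042) in AA-supplemented knockout livers. Nfia, a nuclear factor I gene, differed by 0.061 (SE 0.044) and 0.086 (SE 0.044) in the same order. On a further probe set of Nfia the differences were 0.21 and 0.15.

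Among enzymes and genes of fragile sites, 5 of 6 were higher in AA-deficient knockout livers than in wild type, with a median of 0.091, and 0 of the 6 passed, where 4.63% of all tested genes did. Dpyd, the first and rate-limiting enzyme of pyrimidine breakdown, read 1.84 and 1.75 in AA-deficient knockout livers, 1.75 and 1.80 in AA-supplemented knockout livers, and 1.68 and 1.69 in wild type. Both knockout groups lay above wild type by a small step. The dinucleotide hydrolase gene Fhit differed by 0.088 (SE 0.045) in AA-deficient knockout livers, the oxidoreductase gene Wwox by 0.093 (SE 0.043) and the cGMP-dependent kinase gene Prkg1 by 0.088 (SE 0.045). Macrod2, which encodes an enzyme that removes ADP-ribose from proteins, read 0.433 and 0.261 in AA-deficient knockout livers, 0.304 and 0.302 in AA-supplemented knockout livers, and 0.365 and 0.423 in wild type. Its AA-deficient arrays lay on both sides of wild type.

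Dystrophin, Dmd, the longest member, read 0.642 and 0.583 in AA-deficient knockout livers, 0.604 and 0.659 in AA-supplemented knockout livers, and 0.657 and 0.637 in wild type, with all groups overlapping. The sarcoglycan gene Sgcz overlapped as well and differed by 0.071 (SE 0.059) in AA-deficient knockout livers against wild type. The glypicans, cell-surface carriers of heparan sulfate, and Ext1, which builds that chain, did not share a direction. Gpc6 read 0.311 and 0.372 in AA-deficient knockout livers, 0.267 and 0.342 in AA-supplemented knockout livers, and 0.191 and 0.237 in wild type. Both wild-type values of Gpc6 lie in the range of the members below the filter, so no order of the groups is read from them. Gpc5 differed by 0.023 (SE 0.055) in AA-deficient knockout livers against wild type. Ext1, the shortest member, read 0.937 and 0.926 in AA-deficient knockout livers, 0.984 and 0.963 in AA-supplemented knockout livers, and 0.932 and 1.06 in wild type.

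Of the members, 8 had several probe sets. On the 14 not chosen, 12 were higher in AA-deficient knockout livers than in wild type (median 0.18) and 11 in AA-supplemented knockout livers (median 0.092). Both further probe sets of Lpp, at 0.31 and 0.15, and that of Zbtb20, at 0.26, had the sign of the chosen one in AA-deficient knockout livers against wild type. The 4 others of Macrod2 ran from -0.17 to 0.035.

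Across the 30, which share the same arrays and are not replicates, the Spearman coefficient of span with the difference was -0.295 for AA-deficient and -0.282 for AA-supplemented knockout livers against wild type, while between the 2 knockout groups it was -0.025. Span was itself related to the mean value of the member at -0.585. With the mean value, which mixes abundance and the response of the probes, the coefficients of the difference were 0.441 and 0.556 against wild type. The 9 members between the 25th and 50th percentile of mean value had a median difference of 0.023 in AA-deficient knockout livers against wild type, the 9 between the 50th and 75th had 0.088 and the 12 above the 75th 0.13. In AA-supplemented knockout livers the medians were -0.013, 0.035 and 0.086 in the same order.

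The members were chosen because long genes were higher in the knockouts, so the values of other long genes restate that observation and lend it no support. Of the 319 tested genes of 300 kb or more that are no members, 210 were higher in AA-deficient knockout livers than in wild type, with a median of 0.038, and 197 in AA-supplemented knockout livers, with a median of 0.018. In AA-deficient knockout livers 32 were called higher and 3 lower, or 10.03% higher against 3.08% of all tested genes. The median was 0.0082 between the 25th and 50th percentile of mean value (153 genes), 0.074 between the 50th and 75th (114 genes) and 0.11 above the 75th (52 genes). Genes under 10 kb had medians of -0.010, -0.030 and -0.026 in the same classes. The 4 longest were Lrrc4c, the phosphodiesterase gene Pde4d, Agbl4 and Lingo2. Their differences between AA-deficient knockout livers and wild type were -0.0075, 0.084, -0.15 and 0.070, and each missed the threshold (adjusted p of 0.964, 0.369, 0.191 and 0.783 in limma).

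**Figure D3:**
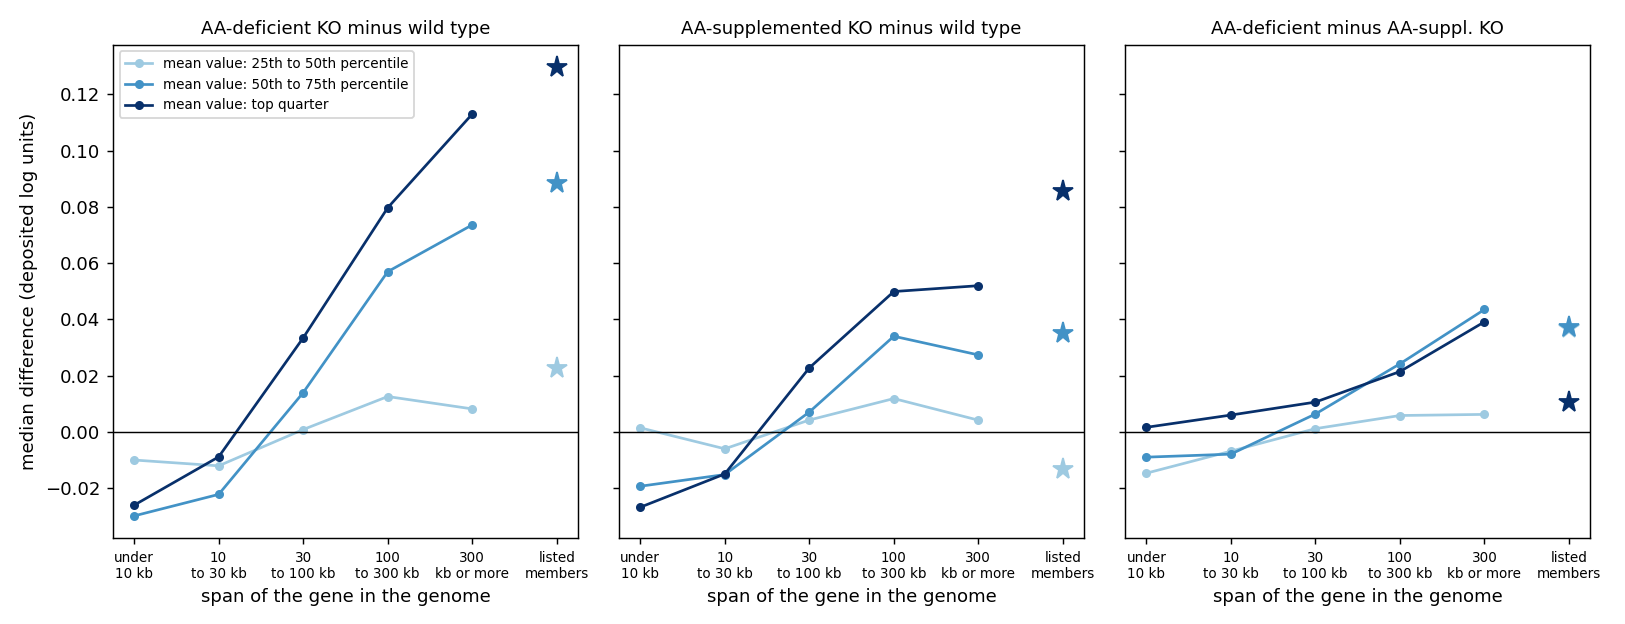
Median difference in deposited log units by class of gene span (x axis) for tested genes that are no members, split into 3 classes of mean value (line shades), with the members of each class as stars. In AA-deficient knockout livers against wild type the upper 2 classes of mean value climb with each class of span and the lowest stays close to 0, and in the 2 comparisons with wild type the members above the 75th percentile stand at 0.13 and 0.086.

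Array by array, the tested members had median deviations from their own means of 0.057 and 0.025 in AA-deficient knockout livers, -0.0026 and 0.031 in AA-supplemented knockout livers, and -0.057 and -0.036 in wild type. Above their own mean were 28 and 18 of the 30 in AA-deficient knockout livers, 13 and 20 in AA-supplemented knockout livers, and 9 and 6 in wild type. Both wild-type arrays were below every knockout array. The members differed between the 2 arrays of a group by a median absolute 0.041 in AA-deficient knockout livers, 0.055 in AA-supplemented knockout livers and 0.047 in wild type.

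**Figure D4:**
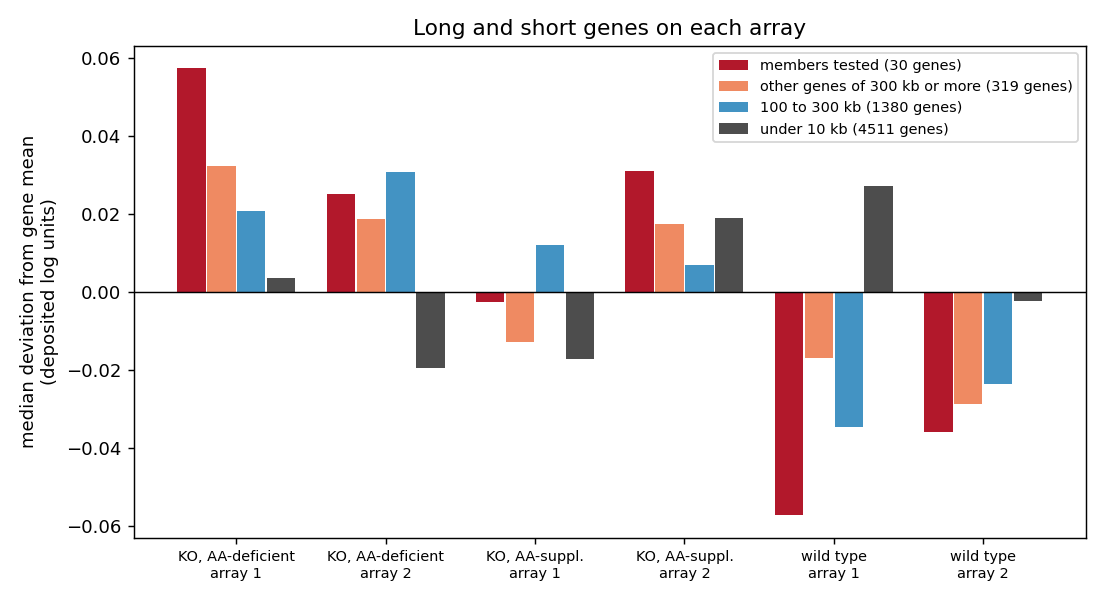
Median deviation of each set of genes from its own mean over all arrays, in deposited log units, per array. The 30 members are lowest on the wild-type arrays (-0.057 and -0.036), as are the 319 other genes of 300 kb or more, and genes under 10 kb are highest on wild-type array 1.

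Paralogs and partners of the members were followed as a list of 101 genes, of which 75 were tested. Against wild type 50 were higher in AA-deficient knockout livers (median 0.025) and 46 in AA-supplemented knockout livers (median 0.020), and between the knockout groups 50 were higher in the AA-deficient one (median 0.029). In limma 8 were called higher and 1 lower in AA-deficient knockout livers against wild type, where 3.08% and 1.55% of all tested genes were. Those named by rule were Erbb4, a neuregulin receptor that itself spans 1.08 Mb, at 0.59 (SE 0.076, adjusted p = 0.0115), Nfib at 0.25 (SE 0.042, adjusted p = 0.0240) and Dag1, which encodes the dystroglycan bound by dystrophin, at 0.23 (SE 0.041, adjusted p = 0.0283). Erbb4 is one of the other genes of 300 kb or more, so its value restates the observation behind the choice of members and lends it no support. Its wild-type arrays read 0.175 and 0.242, in the range of the members below the filter. Nrg4, a relative of the member Nrg3, differed by -0.91 (SE 0.077, adjusted p = 0.00400). It also passed between the knockout groups, at -0.72 (SE 0.077, adjusted p = 0.0263). Zbtb16 at -0.42 (SE 0.13, adjusted p = 0.302) and Dpys at 0.15 (SE 0.052, adjusted p = 0.370) did not pass there. Named after their values were seen, the shorter paralogs Ptprf and Nfix were at 0.20 (SE 0.039, adjusted p = 0.0368) and 0.23 (SE 0.041, adjusted p = 0.0276) in AA-deficient knockout livers against wild type. Lrp1 was at 0.48 (SE 0.069, adjusted p = 0.0159), while Zyx, a relative of Lpp, was at 0.040 and did not pass (adjusted p = 0.651). Leaving out either wild-type array ended every one of these calls, and Rgn alone passed in any comparison of those 2 fits.

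Beside the members, a list headed nuclear and imprinted noncoding RNAs held 11 genes, of which 4 were tested and 3 were below the filter. The heading is no property measured here, and it need not fit Gas5 and Snhg11. The 4 tested, Malat1, Airn, Gas5 and Snhg11, had medians of 0.36 in AA-deficient and 0.30 in AA-supplemented knockout livers against wild type. Airn spans 119 kb and read 0.567 and 0.594 in AA-deficient knockout livers, 0.378 and 0.533 in AA-supplemented knockout livers, and 0.0307 and 0.00297 in wild type. Both wild-type values of Airn are below the filter value, where a level could not be told from background. Malat1, of 6.98 kb, read 1.65 and 1.77 in AA-deficient knockout livers, 1.58 and 1.73 in AA-supplemented knockout livers, and 0.914 and 1.33 in wild type. Malat1 was thus lowest on wild-type array 1, as Zbtb20 was. Snhg11 read 0.459 and 0.361 in AA-deficient knockout livers, 0.218 and 0.260 in AA-supplemented knockout livers, and 0.255 and 0.265 in wild type. Its values outside the AA-deficient group lie in or close to the range of the members below the filter, so no order of the groups is read from them. Gas5 differed from wild type by 0.16 (SE 0.067) in either knockout group, and its groups of AA-deficient and AA-supplemented arrays overlapped each other. The part of these RNAs in the members' differences was not tested.

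The 9 neuron and glia markers with a value averaged 0.366 to 0.414 in AA-deficient knockout livers, 0.350 to 0.405 in AA-supplemented knockout livers and 0.390 to 0.407 in wild type, and 0 of the 7 tested passed in any comparison. Endothelial markers averaged 1.08 to 1.13 in AA-deficient knockout livers, 1.06 to 1.06 in AA-supplemented knockout livers and 1.03 to 1.05 in wild type, and 1 of 8, Stab2, was called higher in AA-deficient knockout livers against wild type. The endothelial median was 0.083 in AA-deficient knockout livers (6 of 8 higher) and -0.019 in AA-supplemented knockout livers (3 of 8 higher) against wild type, and 0.062 between the knockouts. For stellate markers the medians against wild type were 0.060 (5 of 8 higher) and 0.031 (4 of 8 higher), and for Kupffer markers 0.042 (7 of 7 higher) and 0.026 (5 of 7 higher). Of the stellate, Kupffer, cholangiocyte, lymphocyte and muscle markers 0 passed in any comparison in limma. The part of any of these cells in the members' differences was not tested.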

How the data were processed

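Total RNA from liver was extracted with ISOGEN and labelled by a GeneChip WT terminal labelling kit, per the labels' protocols. The deposited table holds 1 log10 value per probe set and array. The log base is inferred from the range, and the software, background correction, summarisation and normalisation are not stated in the labels or the file. Of 34760 probe sets 3995 had no value. Of the rest 21161 had 1 gene symbol in the platform annotation, 1150 several and 8454 none. Spans are those of the RefSeq table (GRCm38.p6), introns included, and promoter sequences are RefSeq's. The number of arrays limits the precision.

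Differences were fitted by lmFit, contrasts.fit and eBayes of limma 3.58.1 (R 4.3.3) on the deposited values with all 6 arrays in 1 model, with 3 residual and 4.89 prior degrees of freedom. The fitting procedure was also run on simulated data. Their errors were independent between arrays and drawn from the fitted prior, so that run cannot speak for the calls in these arrays. P-values are two-sided and adjusted by the Benjamini-Hochberg method over 14662 genes. The members and lists were chosen with earlier results of these data known. Values on every array are given for any member called between the knockout groups, the 10 largest and 5 lowest by mean knockout difference and the 3 largest between the knockout groups, with Dpyd added after its values were seen. Other genes named by rule are the 4 longest, those of each list that passed between the knockout groups or were among the 6 largest there, and Rgn. Lrp1, Ptprf, Nfix, Zyx, Stab2, the exocyst subunits, Mir28a, Gm9968 and Cstf2t were named after their values were seen. The labels do not say whether a replicate number marks a shared litter, batch or day, and the model has no block for these numbers. Alternatives changed the normalisation, the filter, the eBayes options, the probe set, the span trend, the block and the arrays.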

Additional observations from a re-analysis of the deposited data

How the results depend on the processing

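The median difference of the members kept its direction in both comparisons with wild type under all alternatives run. In AA-deficient knockout livers against wild type it was 0.088, and 0.038 after removal of the trend on span and 0.047 without a filter (41 members), with 0.078 to 0.092 when single arrays were left out. In AA-supplemented knockout livers it was 0.035, and 0.0031 after removal of the trend and 0.063 when only genes above the 50th percentile were tested, with 0.031 to 0.065 over single arrays. Removing the trend on span takes out part of what the members were chosen for. Between the knockout groups it was 0.027 (21 of 30 higher), and 0.0081 after removal of the trend (15 of 30 higher) and 0.016 above the 50th percentile, with -0.00055 to 0.051 over single arrays.

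The 6 members called in AA-deficient knockout livers against wild type became 3 without a filter and 3 with the replicate block, and 0 to 6 over single arrays. The trend option gave 1 member between the knockout groups (Exoc4, 0.23, adjusted p = 0.0273) and 4 in AA-supplemented knockout livers against wild type, and with the robust option too 1 (Exoc4, 0.23, adjusted p = 0.0245) and 3. The cause was not tested.

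Over all genes tested, 30 passed between the knockout groups. The count was 12 after quantile normalisation, 57 with arrays centred on the median, 11 after cyclic loess, 48 without the span trend, 0 without a filter (1550 at an unadjusted p under 0.05), 51 with the 50th percentile filter, 154 with the trend option and 177 with the robust option. It was 0 with only the 4 arrays compared (1230 unadjusted), 4 with the block and 0 to 46 over single arrays. For AA-deficient knockout livers against wild type the 679 genes became 173 without a filter, 1057 with the 50th percentile filter, and 1271 and 1312 with the 2 eBayes options. They became 1031 with only the 4 arrays compared and 163 with the block. Fewer than 679 passed when any array of the 2 groups compared was left out. For AA-supplemented knockout livers the 1 gene became 8 with centring, 2 without the span trend, 94 and 116 with the 2 eBayes options, 3 with the block and 1 to 7 over single arrays. Deviations of same-numbered arrays correlated at 0.358 between AA-deficient knockout livers and wild type, -0.369 between the knockout groups and -0.284 between AA-supplemented knockout livers and wild type, so the numbers were not used to pair arrays.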

Other observations

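Genes inside the span of a listed member in the RefSeq table were sought only among genes measured here that are not listed themselves. Of 13 such genes 6 were tested, and 0 of the 6 passed in any comparison in limma (3 had an unadjusted p under 0.05 in AA-deficient knockout livers against wild type, 1 in AA-supplemented knockout livers against wild type, while 0 had one between the knockout groups). Their median difference was 0.081 in AA-deficient knockout livers and 0.057 in AA-supplemented knockout livers against wild type. Higher than in wild type were 5 of the 6 in AA-deficient and 4 in AA-supplemented knockout livers. In AA-deficient knockout livers the differences ran from -0.047 (Cstf2t, inside Prkg1) to 0.19 (Gm9968, inside Zbtb20). Mir28a, inside Lpp, differed by 0.016 (SE 0.072) there.

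The nearest genes on either side of a listed member, Magi2 and Immp2l included, were likewise sought among measured genes that are not listed. Genes that overlap the member were left out. Of the 64 tested, 26 were higher in AA-deficient knockout livers than in wild type (median -0.018) and 27 in AA-supplemented knockout livers (median -0.0082). In the first of these comparisons 4 were called higher and 1 lower, where 3.08% and 1.55% of all tested genes were.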
